A study of Mus musculus with 6 samples.

Results

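Peptidylarginine deiminases were examined in the uterus of Nat10-deleted and control mice: 4 genes, Padi1, Padi2, Padi3 and Padi4, of the 20637 genes listed in each library's table. The members were taken by gene symbol, and the family was selected on values of this same comparison that were already known, in which Padi1 differed between the genotypes. The control against deleted values of the 4 genes are therefore given as a description, without a test. Whole uteri of females at postnatal day 21 gave poly(A) RNA for 3 libraries of genotype Nat10 f/f (floxed Nat10, the controls) and 3 of genotype Nat10 d/d (Nat10 deleted), and no other allele or agent is named for either group. Nat10 encodes the acetyltransferase that makes N4-acetylcytidine in RNA. The Cre driver, the deleted exons and the cells that lose Nat10 are not given in the sources used here. The titles number the replicates, and nothing says that they came from separate litters, so spreads are between these libraries.

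Peptidylarginine deiminases (PADs) are calcium-dependent enzymes that turn arginine residues of proteins into citrulline, which removes a positive charge from the protein. Padi1 and Padi3 are best known from the epidermis and the hair follicle, where their substrates include keratins, filaggrin and trichohyalin. Padi2 is broadly expressed, with known roles in brain, muscle and macrophages, and Padi4 is the nuclear, histone-modifying member known from granulocytes. In the mouse uterus, PAD expression in the epithelium is known to depend on oestrogen. Padi6, which has a role in the oocyte and early embryo, is the remaining gene of the family and was listed at 0 in all 6 libraries.

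The family lies in 1 cluster on chromosome 4 (build GRCm38, which is mm10, the build named in the submitters' processing notes). In the annotation (GENCODE M21), Padi4 (ENSMUSG00000025330) spans chr4:140745865-140774236, Padi3 (ENSMUSG00000025328) chr4:140785365-140810648 and Padi1 (ENSMUSG00000025329) chr4:140812983-140845778, all on the minus strand. Padi2 (ENSMUSG00000028927) spans chr4:140906344-140952586 on the plus strand. Each of the 4 has a transcript of 16 exons, of 3754 bases for Padi1, 4774 for Padi2, 3072 for Padi3 and 2316 for Padi4. Padi1 overlaps the opposite-strand gene Gm13032, and Padi2 overlaps the antisense gene Gm13031 and the small RNA gene Gm26226. These are overlaps of whole gene spans, and overlap of exons was not checked. Gm26226 lies on the strand of Padi2, and strandedness of the libraries is not stated. Some reads of Padi1 and Padi2 may therefore not be separable from reads of these partners. The longest stretch of identical bases shared by 2 of the members' transcripts was 63 bases, between Padi1 and Padi3, and Padi1 and Padi4 shared at most 35.

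The 250 bases before the RefSeq transcription start (GRCm38.p6) are shown for the 3 members with appreciable RNA, because their levels did not move alike. Each is written 5′ to 3′ in the direction of transcription, and capitals mark matches to the motifs named after them. The Padi1 window is chr4:140845779-140846028 (minus strand), that of Padi2 chr4:140906110-140906359 (plus strand) and that of Padi4 chr4:140774204-140774453 (minus strand). The Padi2 and Padi4 windows reach into the GENCODE gene spans given above, so their distances hold for the RefSeq start only. The TATA box of Padi4 described below lies inside its GENCODE span.
Padi1: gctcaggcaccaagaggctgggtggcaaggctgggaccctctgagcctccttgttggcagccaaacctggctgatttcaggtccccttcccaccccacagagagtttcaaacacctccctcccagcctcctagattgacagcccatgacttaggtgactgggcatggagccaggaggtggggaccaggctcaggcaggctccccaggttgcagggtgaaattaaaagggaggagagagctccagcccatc
Padi2: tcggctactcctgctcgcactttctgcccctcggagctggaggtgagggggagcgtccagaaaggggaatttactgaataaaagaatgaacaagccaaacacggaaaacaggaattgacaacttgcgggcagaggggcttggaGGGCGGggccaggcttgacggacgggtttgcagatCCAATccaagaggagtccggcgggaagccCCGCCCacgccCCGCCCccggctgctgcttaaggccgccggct
Padi4: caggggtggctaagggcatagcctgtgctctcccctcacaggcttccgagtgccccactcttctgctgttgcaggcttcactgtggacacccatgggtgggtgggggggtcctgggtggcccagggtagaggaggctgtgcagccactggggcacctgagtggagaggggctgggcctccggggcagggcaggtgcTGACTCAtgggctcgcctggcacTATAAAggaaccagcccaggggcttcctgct
The motifs searched on both strands were the TATA box (TATAAA), the GC box (GGGCGG), the CCAAT box (CCAAT), the AP-1 motif (TGANTCA), the half-sites of the oestrogen receptor (GGTCA) and the progesterone receptor (TGTTCT), and the full oestrogen response element, which is GGTCA, any 3 bases and TGACC and so contains the half-site. The Padi1 window held none of them. The Padi4 window held a TATA box beginning 31 bases before the start and an AP-1 motif beginning 54 bases before it, and TATAAA was found in 12.4% and TGANTCA in 6.75% of the 32851 promoter windows in the RefSeq table. Padi2 held 3 GC boxes, a motif in 32.7% of windows, and 1 CCAAT box, in 33.8%. The Padi3 window, which is not printed, held 1 GC box and 2 CCAAT boxes. Neither receptor half-site, present in 35.2% (oestrogen) and 16.1% (progesterone) of windows, nor the full element (0.0639%) was found in any of the 4 windows.

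All libraries were of similar depth. From the size of the smallest values, depth was estimated at about 14400000 to 18100000 fragments, with the deepest 1.26 times the shallowest. All 15 uterine epithelium, 12 stroma and 10 smooth muscle markers passed the expression filter (at least 1 FPKM, fragment abundance scaled for transcript length and library depth, in at least 3 libraries). Nat10 itself was 13.2, 16.4 and 9.95 FPKM in f/f replicates 1, 2 and 3 and 5.57, 5.23 and 5.53 in the d/d replicates, so the groups did not overlap. Nat10 d/d replicate 2 stood apart from the other libraries. It had the lowest array quality weight, 0.224 against 0.451 to 3.74 for the others, and the Padi differences are also given without it. In limma, 0 of the 12640 genes that passed the filter (0%) differed at an adjusted p of 0.05, and 630 had an unadjusted p under 0.05. Without that library, 12 genes passed. In 582 of the 12640, or 4.6%, every d/d library lay below every f/f library, in 774 (6.12%) every d/d library lay above, and together these were 10.7%.

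Padi1 was the most abundant member in the control uterus. Its level was 8.26, 8.36 and 9.01 FPKM in f/f replicates 1, 2 and 3, a mean of 8.54 ± 0.407 (SD, n = 3). In the d/d uteri it was 3.41, 5.50 and 3.47 FPKM, a mean of 4.13 ± 1.19 (SD, n = 3), or 48.3% of the control mean. All 3 deleted libraries were below all 3 controls, and replicate 2 was the highest of the deleted libraries. The f/f libraries differed by less than 1 FPKM among themselves, so the gap between the lowest control and the highest deleted library was larger than the control range. On the log2(FPKM + 1) scale the difference was -0.92 with a standard error (SE) of 0.17, and 17 of the 12640 tested genes had a more negative one. The median difference over all tested genes was 0.03. Without Nat10 d/d replicate 2 the Padi1 difference was -1.10.

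Fragment numbers give the counting error behind these levels. Estimated from depth and transcript length, the Padi1 values rested on about 509, 418 and 484 fragments in controls, and on 169, 344 and 178 in deleted libraries. Counting alone would then give a relative SD of 4.43% to 4.89% in controls, against 5.39% to 7.69% in deleted libraries. Ranked among the genes with a value above 0, Padi1 lay above 46.6% to 49.2% of genes in the control libraries and above 30.3% to 37.6% in the deleted ones. It was thus near the middle of the expressed genes in controls and lower in the order in every deleted library.

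**Figure D1:**
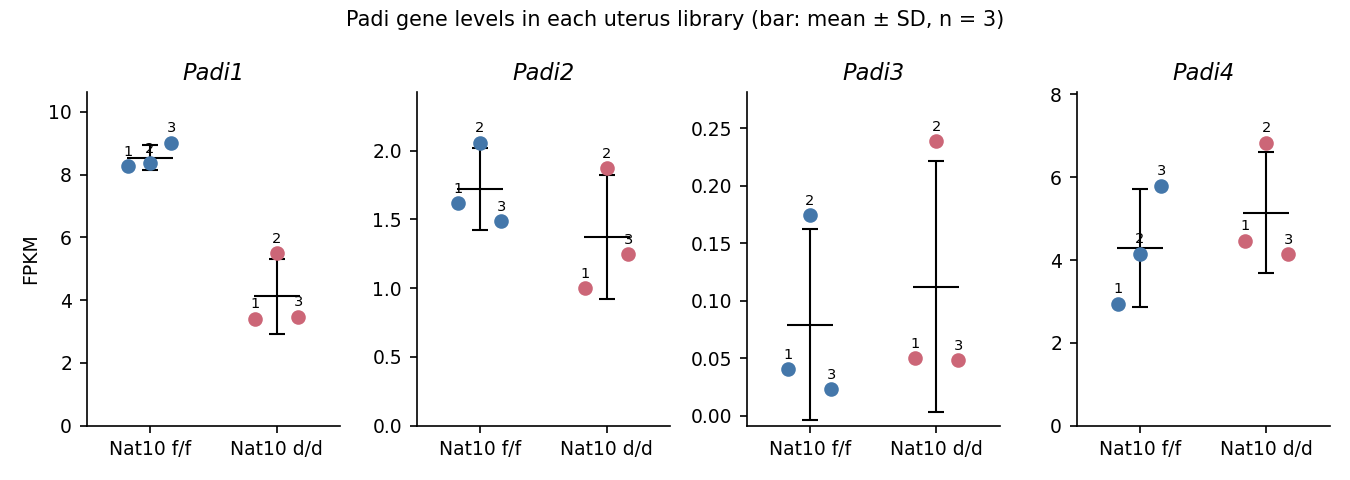
Level of each Padi gene (FPKM, vertical axis, scaled separately for each gene) in the 3 Nat10 f/f and 3 Nat10 d/d libraries, with replicate numbers beside the points and horizontal bars for the mean with SD. The groups are separate for Padi1 and overlap for Padi2, Padi3 and Padi4, and d/d replicate 2 is the highest deleted library in every panel.

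Padi4 was the most abundant member in every d/d library and came after Padi1 in every f/f library. It was 2.94, 4.15 and 5.79 FPKM in the f/f replicates (mean 4.29 ± 1.43, SD, n = 3) and 4.46, 6.83 and 4.14 in the d/d replicates (mean 5.14 ± 1.47, SD, n = 3). The lowest and the highest value belonged to different genotypes, but the other 4 libraries were mixed, and the groups overlapped. The log2 difference was 0.22 (SE 0.24), smaller than its error, and single libraries set its size. It was 0.03 without f/f replicate 1, 0.42 without f/f replicate 3 and 0.04 without d/d replicate 2. The Padi4 values rested on an estimated 106 to 249 fragments per library, fewer than those of Padi1 in each of the 6 libraries.

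Padi2 was expressed at a lower level still. Its values were 1.62, 2.06 and 1.49 FPKM in the f/f replicates (mean 1.72 ± 0.298, SD, n = 3) and 0.999, 1.87 and 1.25 in the d/d replicates (mean 1.37 ± 0.451, SD, n = 3). Deleted replicates 1 and 3 were below every control, while deleted replicate 2 lay above 2 of the 3 controls. The log2 difference of -0.21 (SE 0.19) was about as large as its error. It was -0.35 without d/d replicate 2 and -0.09 without d/d replicate 1. These values rested on an estimated 64 to 152 fragments per library.

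Padi3 was close to the limit of detection and was the 1 member of the 4 that did not pass the filter. It was listed at 0.0404, 0.174 and 0.0232 FPKM in the f/f replicates and 0.0503, 0.239 and 0.0484 in the d/d replicates. After multiplication by each library's estimated relative depth, these 6 values were 2, 7, 1, 2, 12 and 2 times the smallest of them, each within 0.025 of a whole number. The values of Padi3 therefore correspond to about 2, 7 and 1 fragments in controls, and to 2, 12 and 2 in deleted libraries. Replicate 2 was highest in both genotypes. No difference between genotypes was detectable at this depth (log2 difference 0.04, SE 0.09, from the fit without a filter).

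The make-up of the family within each library does not depend on how libraries are scaled against each other. FPKM values are divided by transcript length, so members can be added and compared. Padi1 made up 64.2%, 56.7% and 55.2% of the summed FPKM of the 4 genes in the f/f replicates. In the d/d replicates its share was 38.2%, 38.1% and 38.9%, below every control. Padi4 made up 22.9%, 28.1% and 35.5% in the f/f replicates and 50.02%, 47.3% and 46.5% in the d/d replicates, above every control. Padi1 is part of the sum, so its lower level by itself raises the Padi4 share. The Padi4 level overlapped between the groups (2.94 to 5.79 FPKM in f/f and 4.14 to 6.83 in d/d libraries). The shares of Padi2 overlapped, with 9.11% to 14.0% in f/f and 11.2% to 14.0% in d/d libraries, and Padi3 made up at most 1.65% in any library.

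The member with the highest level was thus Padi1 in all 3 controls and Padi4 in all 3 deleted libraries. The ratio of Padi1 to Padi4 was 2.81, 2.02 and 1.56 in the f/f replicates and 0.764, 0.805 and 0.837 in the d/d replicates. The ratio differed little among deleted libraries although their summed Padi level did not: 8.92, 14.4 and 8.90 FPKM in replicates 1, 2 and 3, against 12.9, 14.7 and 16.3 in the controls. Deleted replicate 2, whose Padi1 level was closest to the controls, therefore had the same family make-up as deleted replicates 1 and 3 to within 1 percentage point for Padi1. The ratio of Padi1 to Padi2 was 4.07 to 6.06 in f/f and 2.78 to 3.42 in d/d libraries, again without overlap. Because the 2 ratios share Padi1 and use the libraries in which Padi1 was chosen, they are descriptions and not separate evidence.

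**Figure D2:**
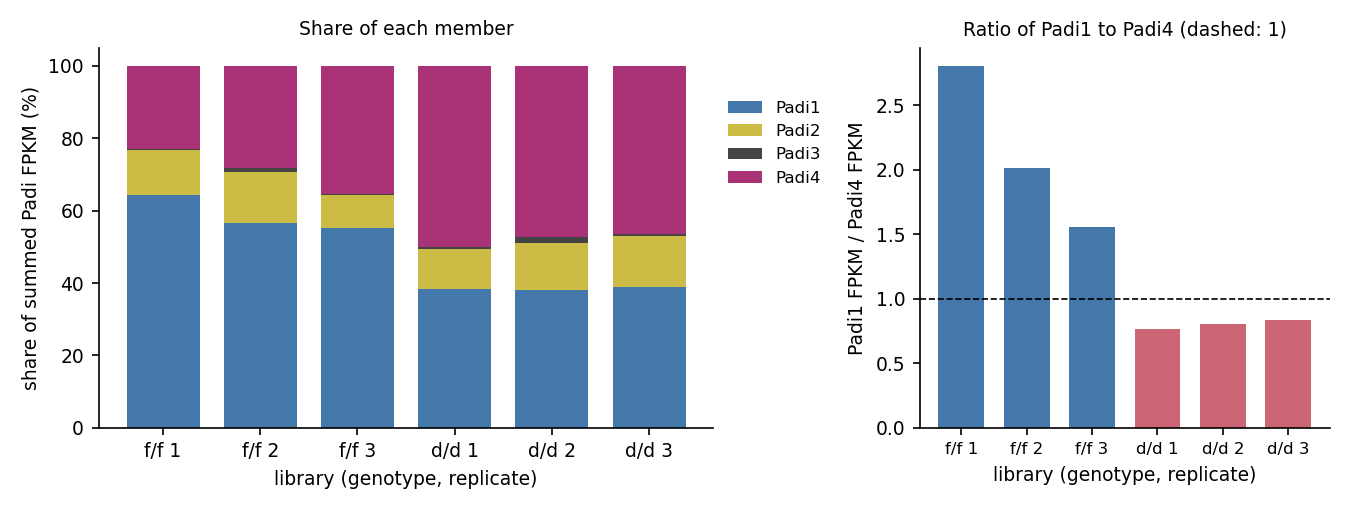
Left, share of each Padi gene in the summed FPKM of the 4 genes (%, stacked bars) for each library; right, ratio of Padi1 to Padi4 FPKM for each library, with a dashed line at a ratio of 1. Padi1 is the largest segment in the 3 f/f libraries and Padi4 in the 3 d/d libraries, where the ratio is 0.764 to 0.837.

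Across the 6 libraries, the members did not share 1 pattern. Pearson correlations of log2(FPKM + 1) were 0.71 between Padi1 and Padi2, 0.70 between Padi2 and Padi3, 0.48 between Padi4 and Padi3, 0.15 between Padi2 and Padi4, 0.08 between Padi1 and Padi3 and -0.06 between Padi1 and Padi4. These are descriptions over 6 points that share the genotype difference and each library's depth.

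The genes around the cluster were examined in chromosomal order. Of the 4 nearest listed genes on each side, 7 of 8 passed the filter, and their log2 differences ran from -0.38 for Klhdc7a to 0.28 for Sdhb, a subunit of succinate dehydrogenase, with a median of -0.13. In 1 of the 7, Arhgef10l, the groups did not overlap (13.8 ± 1.75 against 10.6 ± 1.12 FPKM, SD, n = 3, log2 difference -0.35), and the share over all tested genes was 10.7%. Padi1 lay below all 7, while Padi2, the next gene along the chromosome, and Padi4 lay within their range. Igsf21 was below the filter, as were Padi3 and Padi6.

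**Figure D3:**
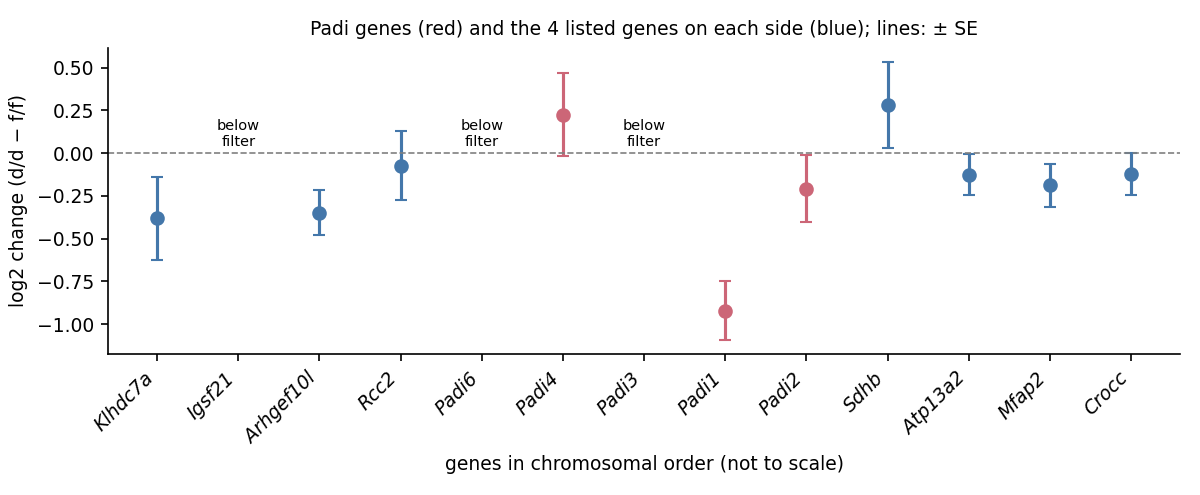
Log2 difference (d/d minus f/f, vertical axis, points with ± SE) of the Padi genes (red) and the 4 listed genes on each side (blue), in chromosomal order and not to scale. Padi1, at -0.92, is the lowest point, and the 7 tested neighbours lie between -0.38 and 0.28.

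Genes whose pattern over the 6 libraries was most like that of each member were found by Pearson correlation of log2(FPKM + 1) among the other 12639 tested genes. For Padi1 these were Efr3a (0.992), Scube2 (0.992), Ppp2r2c (0.991), Lama4 (0.989) and Rasgrp3 (0.985). Ppp2r2c, a regulatory subunit of protein phosphatase 2A, had values of 4.69, 4.58 and 4.26 FPKM in the f/f and 1.32, 2.60 and 1.27 in the d/d replicates, with deleted replicate 2 again the highest of the deleted libraries. Lama4, a laminin chain of vessel basement membranes, had 43.5, 39.6 and 44.8 FPKM in f/f and 26.6, 33.9 and 26.7 in d/d replicates. Efr3a matched the order of Padi1 exactly but over a narrow range, from 27.3 to 29.0 FPKM. For Padi2 the closest were Sec24d (0.998), Rps6ka4, Ptgfrn, Kif5c and Nup160, and all 5 had the same order of libraries as Padi2. For Padi4 the closest was Gfap (0.978), a glial filament protein and a known PAD substrate, at 0.764 to 1.80 FPKM, followed by Zc3h8, Scnm1, D130040H23Rik and Gm12166. In so few libraries high correlations are common: 129 genes exceeded 0.9 with Padi1, 160 with Padi2 and 24 with Padi4.

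Because PADs in the uterus are known from the epithelium, the Padi levels were set beside epithelial markers. None of the 15 uterine epithelium markers was called, 11 had a positive and 4 a negative difference, and their median was 0.14 (0.23 without d/d replicate 2), against 0.03 over all tested genes. In 5 of the 15 every deleted library was above every control (background 6.12%), among them Cldn7 (a tight junction claudin, 0.49), Wnt7a (an epithelial Wnt ligand, 0.66) and Prom1 (0.36). The summed level of the list was 997 to 1098 FPKM in f/f and 991 to 1314 in d/d libraries. Relative to that sum, Padi1 was 0.828%, 0.793% and 0.821% in the f/f replicates and 0.299%, 0.555% and 0.264% in the d/d replicates. Padi1 was thus lower per unit of epithelial marker RNA in every deleted library. This quotient uses the Padi1 values on which the family was chosen, so it is a description and not separate evidence. In whole tissue, fewer cells that express Padi1 and less Padi1 RNA per cell cannot be told apart.

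Squamous epithelium, which expresses Padi1 in skin, was checked with 2 marker lists. Of the 15 markers of cervical and vaginal epithelium, 3 passed the filter, Krt6a and Sprr1b were at 0 in every library, and the median difference of the tested ones was -0.43 (-0.79 without d/d replicate 2, -0.78 without f/f replicate 2, -0.25 and -0.26 without f/f replicates 1 and 3, -0.13 without d/d replicate 3). The summed level was 27.0 to 38.9 FPKM in f/f and 30.5 to 34.3 in d/d libraries, most of it from Perp. Without Perp, left out after its values were seen, the sum was 13.8, 6.46 and 6.41 FPKM in f/f and 3.88, 6.72 and 3.10 in d/d replicates, so that d/d replicates 1 and 3 were below every control and replicate 2 was not. Krt15, a basal keratin, was 5.37, 2.87 and 2.25 FPKM in f/f and 1.03, 1.75 and 0.568 in d/d replicates, without overlap (log2 difference -1.06), while Perp was 0.25. Krt5, below the filter, was 2.79, 0.761 and 0.572 in f/f and 0.365, 0.463 and 0.352 in d/d replicates, and Trp63 was 0.519 to 1.21 in f/f and 0.613 to 1.05 in d/d libraries. Serpinb5, also below the filter, was at most 0.0267 FPKM in f/f and 0.0331 to 0.200 in d/d libraries. Krt15 and Krt5 were therefore lower, and Serpinb5 higher, in the libraries where Padi1 was lower, and the part of these cells in the Padi1 difference was not tested. Of 19 markers of cornified epidermis and hair follicle, 3 passed the filter, 6 were at 0 in every library (Flg2, Spink5, Klk5, Krtdap, Lce1a1 and Cnfn), and the sum was 8.91 to 9.58 FPKM in f/f and 8.42 to 10.6 in d/d libraries. The median difference of its 3 tested members was 0.03 (0.08 and -0.02 without f/f replicates 2 and 3, 0.18, 0.02 and -0.11 without d/d replicates 1, 2 and 3, and 0.06 with quantile normalization), with Lor at 0.03 and Sbsn at 0.08.

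Padi4 was set beside neutrophil markers for the same reason. Padi4 was present at 2.94 to 6.83 FPKM. The neutrophil markers Camp and Ctsg were at 0 in all libraries, and Ly6g, Mpo and Elane were at most 0.592, 0.278 and 0.182 FPKM. Others of the list reached levels like that of Padi4: Mmp9 was 3.33 to 8.57 FPKM, S100a8 was 5.15 in f/f replicate 1, 2.98 in d/d replicate 1 and 3.86 in d/d replicate 3 but 0 in the other libraries, and S100a9 was at most 2.62. Of the 19 listed neutrophil genes 6 passed the filter, with a median difference of 0.14 (0.39 without d/d replicate 2, 0.02 without d/d replicate 1, -0.02 without d/d replicate 3, 0.06 without f/f replicate 2, 0.07 without f/f replicate 3), and the summed level of the list was 16.8 to 20.6 FPKM in f/f and 24.9 to 37.0 in d/d libraries. The list includes Lcn2 and Ltf, which are also oestrogen-responsive epithelial genes. Without these 2 genes, left out after their values were seen, the median difference was -0.14 and the sum was 10.1 to 16.0 FPKM in f/f and 5.93 to 15.7 in d/d libraries. The part of neutrophils in the Padi4 level was not tested. For the 16 macrophage and mast cell markers, a possible source of Padi2, the median difference was -0.10 (0.04 without f/f replicate 3, -0.04 without d/d replicate 2, -0.19 without f/f replicate 1, -0.16 without d/d replicate 3) and the sum was 214 to 298 FPKM in f/f and 208 to 273 in d/d libraries. Mcpt4 (-0.49) and Tpsb2 (-0.48), both mast cell proteases, overlapped between groups.

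Hormone-response genes were compared because of the known oestrogen dependence of uterine PADs. Of the 18 listed genes 11 passed the filter, 0 were called in either direction, 7 had a positive and 4 a negative difference, and the median was 0.05 (0.02, 0.17 and 0.19 without f/f replicates 1, 2 and 3, 0.14 and 0.09 without d/d replicates 2 and 3, and 0.0094 with quantile normalization). Pgr, the progesterone receptor, was lower without overlap, as Padi1 was: 73.8, 62.2 and 60.3 FPKM in f/f and 35.3, 25.4 and 32.6 in d/d replicates. Within the deleted group the order differed, since replicate 2 was the lowest for Pgr and the highest for Padi1. Lcn2, an oestrogen-induced lipocalin, differed in the other direction without overlap, at 2.46, 4.51 and 4.78 FPKM in f/f and 17.3, 19.8 and 6.37 in d/d replicates. Sprr2f, a cornified envelope precursor induced by oestrogen in the uterus, did so too (0.868 ± 0.1695 against 3.74 ± 2.22 FPKM, SD, n = 3, log2 difference 1.25). Sprr2f has near-identical copies, so its reads are uncertain, and it passed the filter only through the d/d libraries, so nothing is read from its direction. Padi1 therefore differed in the direction of Pgr and opposite to Lcn2, and Esr1 overlapped between the groups (83.9 to 134 against 101 to 106 FPKM).

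The proteins that PADs act on, and the enzymes that act on arginine beside them, were examined next; no gene of these lists was called, as none was among all 12640. Of 18 known PAD substrates 9 passed the filter, with 5 positive and 4 negative differences, a median of 0.01 and 0 without overlap, against 10.7% of all tested genes. That median was 0.10 without d/d replicate 3, 0.08 without f/f replicate 2, 0.06 without d/d replicate 1, 0.04 without f/f replicate 1 or d/d replicate 2, and -0.02 with quantile normalization. Npm1, a nucleolar protein citrullinated by Padi4, was 351 ± 45.04 FPKM in f/f and 448 ± 62.8 in d/d uteri (SD, n = 3, log2 difference 0.35), and Cxcl12 differed by -0.36. Vim, an intermediate filament protein, was 374 to 490 FPKM in f/f and 315 to 541 in d/d libraries; it was above Npm1 in every f/f library and in d/d replicate 2, and below it in d/d replicates 1 and 3. Of the epidermal substrates, Flg reached at most 0.00937 FPKM, Hrnr 0.0438 and Krt1 0.321, while Tchh was 0.607 to 1.08, S100a3 0 to 1.09 and Krt10 2.92 to 4.36. Of the 9 protein arginine methyltransferases, which methylate residues that PADs can citrullinate, 8 passed the filter and their median difference was -0.02 (-0.11 without d/d replicate 2, -0.07 without f/f replicate 3, -0.0057 without d/d replicate 1, -0.01 without f/f replicate 2 or d/d replicate 3, and -0.06 with quantile normalization). Prmt2 was lower without overlap (-0.20) and Prmt3 was -0.15.

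Enzymes of free citrulline and arginine, a metabolic pool separate from protein citrulline, had 9 of 12 genes above the filter, 5 with a positive and 4 with a negative difference, and a median of 0.09. That median was -0.04 without d/d replicate 2, -0.07 without d/d replicate 3, 0.02 without f/f replicate 1 or 2, 0.06 without f/f replicate 3 and 0.05 with quantile normalization. Ass1, which joins citrulline to aspartate, was 3.42, 3.79 and 2.40 FPKM in f/f and 4.81, 22.4 and 6.23 in d/d replicates. The groups did not overlap, and d/d replicate 2 was several times above the other deleted libraries. Arg2 differed in the other direction, at 7.71, 4.38 and 6.37 FPKM in f/f and 2.70, 1.84 and 4.54 in d/d replicates. Its log2 difference was -0.86 (SE 0.28), and its groups overlapped. Nos2, an inducible nitric oxide synthase that releases citrulline, was at least 1.37 FPKM in f/f libraries and 0.743 to 0.951 in d/d libraries. It passed the filter only through the f/f libraries, so its lower d/d values are partly fixed by the filter and nothing is read from them. Nos3 was 7.50 to 7.92 FPKM in f/f and 4.98 to 7.48 in d/d libraries. Of the list, 1 gene (Ass1) was higher without overlap and 2 (Nos2 and Nos3) were lower. The shares over all tested genes were 6.12% and 4.6%.

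The remaining lists of cell types bear on which cells the libraries held. The median difference was -0.16 for 12 stroma genes (11 negative; Pdgfra -0.46, Wnt5a -0.45), -0.22 for 10 endothelium genes (9 negative; Kdr -0.47, Tie1 -0.39, Flt1 -0.25), -0.03 for 10 smooth muscle genes (Smtn -0.19, Lmod1 -0.19) and 0.08 for 4 tested Schwann cell and myelin genes (Mbp 0.20). The smooth muscle median was 0.03 and -0.08 without f/f replicates 2 and 3, -0.12, -0.05 and 0.04 without d/d replicates 1, 2 and 3, and -0.08 with quantile normalization. The Schwann cell median was -0.0038 without d/d replicate 1, 0.18 without d/d replicate 2 and 0.04 with quantile normalization. Every deleted library was below every control in 3 endothelium genes (Kdr, Tek and Flt1), 1 stroma gene (Wnt5a) and 1 smooth muscle gene (Lmod1). The background for this was 4.6%. The summed stroma level was 4130 to 4694 FPKM in f/f and 3272 to 4686 in d/d libraries, that of endothelium 344 to 387 and 314 to 351, that of smooth muscle 4605 to 5312 and 4295 to 5431, and that of Schwann cells 142 to 155 and 135 to 155. The Padi1 difference of -0.92 lay below each of these list medians, and the part of cell composition in it was not tested.

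**Figure D4:**
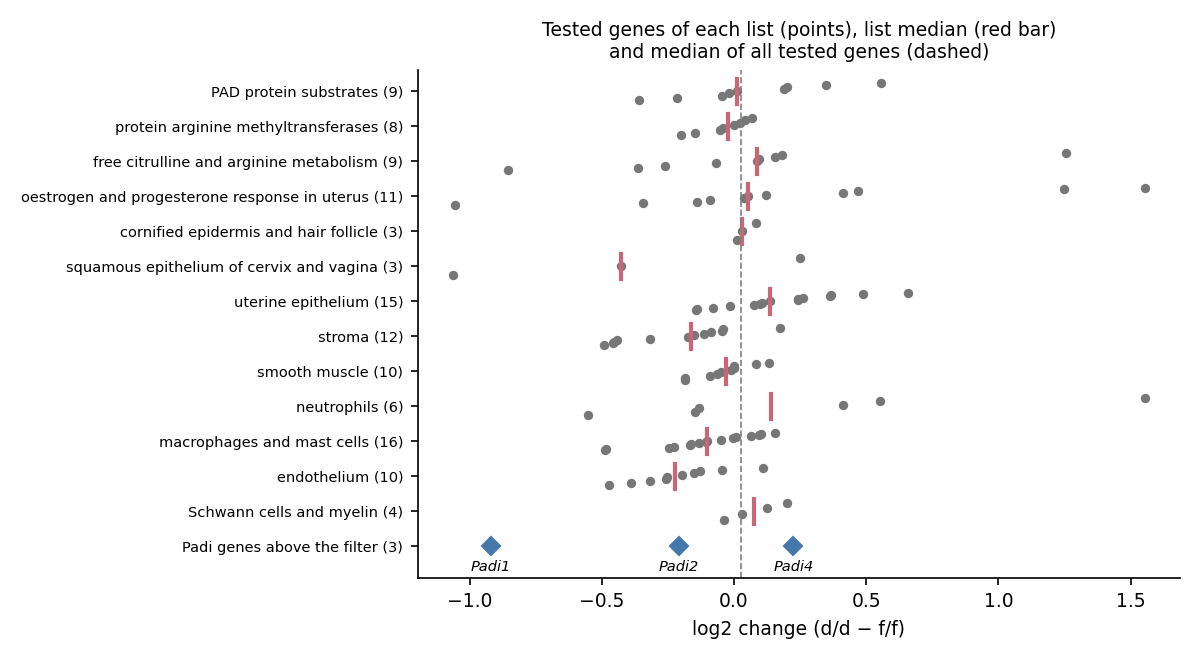
Log2 difference (d/d minus f/f, horizontal axis) of every tested gene of each list (grey points, number of tested genes in brackets), with the list median as a red bar and the median of all tested genes (0.03) as a dashed line. The 3 Padi genes above the filter are blue diamonds in the bottom row, where Padi1 lies at -0.92, Padi2 at -0.21 and Padi4 at 0.22.

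The differences were recomputed under 3 other scalings, other filters and pseudocounts, and without each library in turn; the strictest filter, 1 FPKM in all 6 libraries, left out Padi2 and Padi3 and so gave no value for them. Padi1 was lower in the deleted uteri in every setting that was run, from -1.10 without d/d replicate 2 to -0.82 without d/d replicate 1. Padi2 was negative in each setting that gave it a value (-0.38 to -0.09) and Padi4 positive in every setting run (0.03 to 0.42), though both came close to 0 when 1 library was left out. The Padi3 difference changed sign between settings (-0.04 to 0.50).

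**Figure D5:**
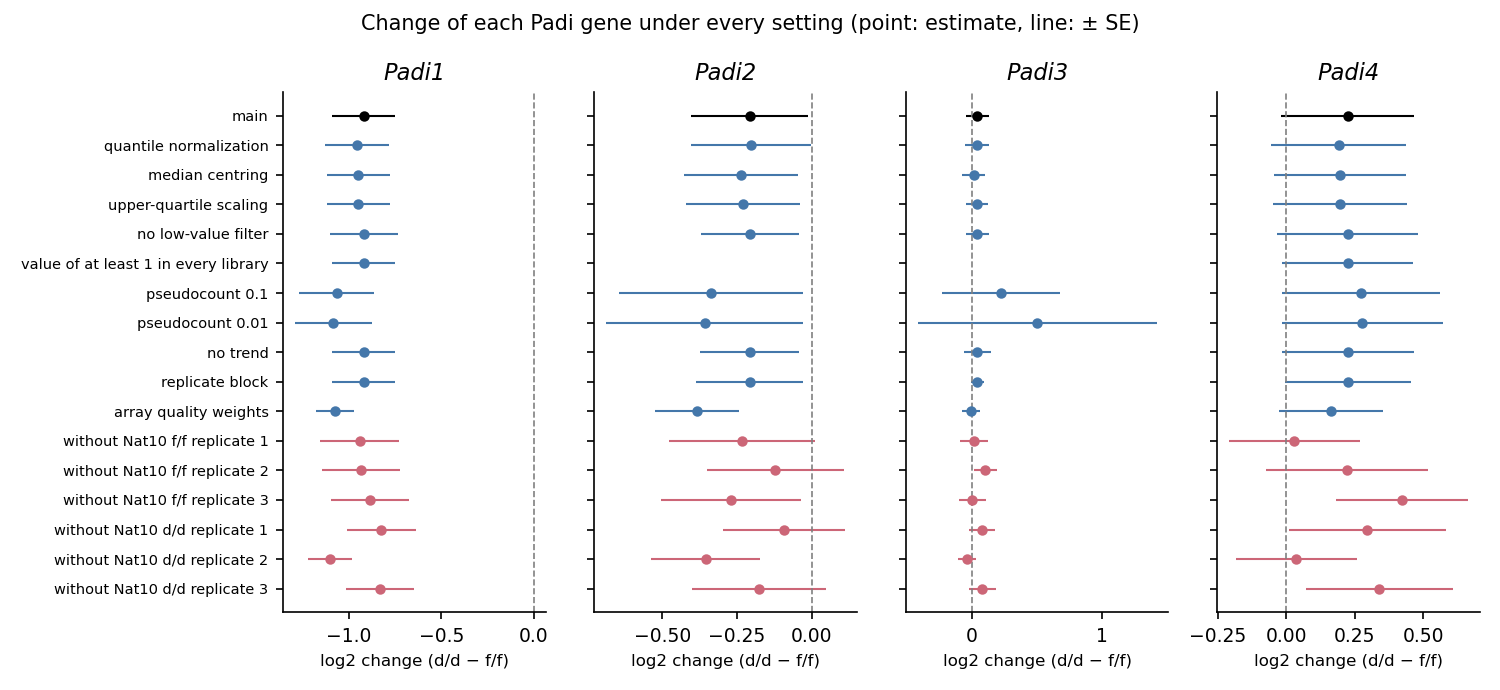
Log2 difference of each Padi gene (d/d minus f/f, horizontal axis, a separate scale for each gene; point with ± SE) under each setting (rows; black, the fit reported; blue, other processing; red, 1 library left out), with a dashed line at 0. All Padi1 points lie between -1.10 and -0.82, while those of Padi2 and Padi4 stay on 1 side of 0 with errors that often reach it.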

How the data were processed

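RNA-seq of 3 Nat10 f/f and 3 Nat10 d/d whole uteri was analysed from the authors' deposited gene tables, with groups and replicate numbers read from the sample titles. The deposited values are FPKM; this unit was inferred from the values and from Cufflinks 2.2.1, named beside HISAT2 2.2.1 and mm10 in the submitters' processing notes. Annotation, gene filter, test and strandedness are not given in the sources used here. Libraries were extracted with TRIzol and made with the TruSeq RNA kit, per the labels' protocols.

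Values were analysed as log2(FPKM + 1), which understates changes of low genes. Genes with at least 1 FPKM in at least 3 libraries were compared across all genes with limma 3.58.1 in R 4.3.3 (eBayes with trend, group as the only term, two-sided, Benjamini-Hochberg, threshold 0.05); the fit was tested on simulated data. The differences of Padi3 come from a fit without the filter. Depth was estimated in genes with 1 annotated transcript, where FPKM times transcript length less 300 bases peaks at the worth of 1 fragment. Between 64.3% and 71.7% of low values lay within 0.15 of a whole fragment, so fragment numbers are approximate, and counting errors cover sampling only. Joins and figures used Python 3.11.15 with pandas 2.3.3, numpy 2.4.6 and matplotlib 3.10.9.

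The members and lists were chosen with earlier results of these data known. Named list genes are the 2 with the smallest p and those without overlap and the largest difference, up to 3 a list; genes of a list are also named for their role. Like genes are the 5 with the highest Pearson correlation. Alternatives were 3 scalings, 2 filters, 2 pseudocounts, no trend, a replicate block, array quality weights and leaving out each library.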

Additional observations from a re-analysis of the deposited data

How the results depend on the processing

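The count of called genes (0 in limma) stayed 0 except with array quality weights, where it was 316, and without Nat10 d/d replicate 2; leaving out 1 library gave 0 to 12. Whether the Padi genes were among those called is not given, since the family was chosen on this contrast. At an unadjusted p under 0.05, settings with 0 calls gave 352 to 1403 genes. When 1 library was left out, log2 differences ranged from -1.10 to -0.82 for Padi1, -0.35 to -0.09 for Padi2, -0.04 to 0.10 for Padi3 and 0.03 to 0.42 for Padi4. The Padi3 difference, 0.04 with a pseudocount of 1, was 0.22 with 0.1 and 0.50 with 0.01, as it rests on few fragments. When all 6 libraries had to reach 1 FPKM, Padi2 (0.999 in d/d replicate 1) and Padi3 were not tested. With the replicate number as a block, Padi1 stayed at -0.92 and 0 genes were called. Same-numbered libraries correlated at -0.34, -0.03 and 0.10 in their deviations from the group means, and differently numbered ones at -0.24 to 0.27. With 3 libraries a group, these correlations cannot show whether the numbers pair the samples. When 1 library was left out, the list median ran from -0.79 to -0.13 for squamous epithelium, from 0.02 to 0.19 for hormone response and from 0.0068 to 0.10 for PAD substrates (-0.02 with quantile normalization), and it changed sign for neutrophils (-0.02 to 0.39), macrophages and mast cells (-0.19 to 0.04), smooth muscle (-0.12 to 0.04), Schwann cells (-0.0038 to 0.18), epidermis (-0.11 to 0.18) and citrulline metabolism (-0.07 to 0.13). The methyltransferase median was -0.11 without d/d replicate 2. Leaving Lcn2 and Ltf out of the neutrophil list gave -0.14, and leaving Perp out of the squamous list gave -0.75; both were chosen after seeing the data.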
